A study of Mus musculus with 2 samples.

Results

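The tumor necrosis factor (TNF) superfamily ligands, their receptors and the TNF receptor-associated factors (TRAFs) were examined in whole kidneys of wild-type and *Inmt* transgenic mice. Both libraries are labeled as acute kidney injury (AKI). The members were the rows of the deposited table whose gene symbol begins with Tnfsf or Tnfrsf, is one of *Traf1* to *Traf7*, or is *Tnf*, *Ltb*, *Ltbr*, *Tradd*, *Cd27*, *Cd40*, *Eda2r*, *Edar*, *Relt* or *Ngfr*. This rule took 40 of 19829 genes, comprising 10 ligands, 21 receptors, 8 adaptors and 1 antisense transcript. *Cd27*, *Tnfsf4*, *Tnfsf9*, *Tnfsf11*, *Tnfsf18*, *Tnfrsf8*, *Tnfrsf9*, *Tnfrsf13c*, *Tnfrsf17* and *Tnfrsf18* had no row and were not analysed here. In the transgenic kidney, the receptors *Tnfrsf12a*, *Tnfrsf23* and *Eda2r* stood 19.6- to 21.1-fold lower than in the wild-type kidney. The ligands *Tnf*, *Tnfsf13* and *Tnfsf13b* and the TNF receptors *Tnfrsf1a* and *Tnfrsf1b* were lower by smaller folds. No member was at least 2-fold higher there, beside 7.35% of all genes compared. None of the 8 adaptors differed by 2-fold in either direction, which lies near the background, since 11.0% of all genes compared were lower and 7.35% higher.

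Each group was 1 mRNA library from left kidney tissue. WT+AKI came from a wild-type C57BL/6 mouse and TG+AKI from a transgenic mouse that overexpresses *Inmt* in proximal tubules, with littermates serving as controls. The promoter of the transgene is not given in the sources used here. *Inmt* encodes indolethylamine N-methyltransferase. Both groups shared the same injury procedure and drug. Per the study's methods the mice were given voclosporin, a calcineurin inhibitor, at high dose before ischemia–reperfusion (I/R). Voclosporin was injected daily at 30 mg/kg for 2 weeks, from 8 to 10 weeks of age, and kidneys were taken at 14 weeks of age. The study gives a longer dosing in another place and different times from I/R to sampling in different places, so the stage of injury is not settled here. The samples' own treatment label names no treatment. There was no library from a sham-operated kidney, so every difference below is between 2 kidneys taken after I/R. These kidneys were not alike in injury. Injured tubule markers summed to 1928 in WT+AKI against 24.0 in TG+AKI. The paper also reports that blood urea nitrogen and creatinine of transgenic mice under this regimen were comparable to those of sham controls. Differences due to genotype and to the degree of injury cannot be told apart here. The title of the TG+AKI sample also calls the mice a conditional knockout, but *Inmt* itself had a value of 10.4 in WT+AKI against 402.8 in TG+AKI, a ratio of 38.5 [35.1 to 42.5], which goes with the transgenic label.

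TNF superfamily ligands are mostly trimeric membrane proteins that can be shed, and they act by clustering their receptors. Death domain receptors recruit adaptors such as TRADD and FADD and can lead either to NF-κB or to apoptosis and necroptosis, whereas receptors without a death domain bind TRAFs directly and signal through NF-κB and stress kinases. Decoy receptors bind ligand without passing on a signal. In the kidney, TNF and TWEAK (encoded by *Tnfsf12*) are known as inflammatory signals to tubular cells, and Fn14 (encoded by *Tnfrsf12a*), the TWEAK receptor, is known to be induced in injured tissue.

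Values are reads per 1000000 of a scaled library, as the table gives them, and 1 read was worth 0.0236 in WT+AKI against 0.0302 in TG+AKI. The libraries held 38542764 and 36427421 reads. Differences are given as the ratio of the value in TG+AKI to that in WT+AKI, or as the fold by which TG+AKI was lower, with a 95% Clopper-Pearson interval from the reads in square brackets. These intervals cover counting error only, since reads from PCR without molecular identifiers are not independent molecules. With 1 library per group there was no replicate spread and no test of the genotype. The comparison was limited to the 14997 genes, 31 members among them, that reached a value of 1 in either library, and a gene is called lower or higher here at a ratio of at most 0.5 or at least 2. A value of 1 stood for 42.4 reads in WT+AKI against 33.1 in TG+AKI.

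Marker genes of several cell types differed between the libraries. All 8 proximal tubule markers compared were called higher in TG+AKI, and their summed value was 2709 in WT+AKI against 13074 in TG+AKI. Thick ascending limb markers summed to 1966 and 3286 (3 of 5 called higher) and collecting duct markers to 339.6 and 447.4 (1 of 6 higher). Dendritic cell markers summed to 21.6 and 18.1, with 1 of 3 compared called higher and 1 lower. The higher one reached the minimum value in TG+AKI alone. All 6 injured tubule markers were called lower, with sums of 1928 and 24.0. The sums were 199.6 and 89.5 for macrophages and monocytes (7 of 10 called lower), 7.38 and 1.42 for neutrophils (2 of 2 lower), and 649.8 and 297.7 for fibroblasts and mural cells (4 of 7 lower). Endothelial markers had sums of 298.3 and 308.4, with none of 6 called, and podocyte markers 422.9 and 453.8, with none of 5 called. T cell markers summed to 3.35 and 3.74, B cell markers to 1.82 and 2.51 and NK cell markers to 1.13 and 1.39. The table holds only genes with reads in both libraries. The neutrophil markers *Cxcr2*, *Retnlg* and *Ly6g* and the T cell marker *Cd3d* had no row, so their sums leave these markers out, and they were not analysed here. The compared neutrophil markers and some injured tubule markers reached a value of 1 in WT+AKI alone, so they could only be compared because they were high there. The part of these differences in the members' values was not tested. In whole-kidney RNA, fewer cells of a type and less RNA per cell cannot be told apart.

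Of the 31 members compared, 12 were called lower and 0 higher, while 11.0% of all compared genes were called lower and 7.35% higher. The median log2 ratio was -0.55 over these members and -0.02 over all compared genes. The whole interval lay past 2-fold lower for 11 members, against 7.52% of all genes, and past 2-fold higher for 0 members, against 5.05% of all genes. Of the 12 lower members, *Ngfr*, *Relt*, *Tnf*, *Tnfsf13* and *Tnfsf13b* reached the minimum value in WT+AKI alone and so could only be compared because they were high there. Among the 26 members that reached it in both libraries, 7 were lower (8.03% of all such genes), and over all 40 members without a minimum 14 were at a ratio of at most 0.5 (12.6% of all 19829 genes). The 12 calls were the same genes when the libraries were scaled to equal totals, to a median ratio of 1 or by DESeq2 size factors. Scaling to equal totals moved the median of all genes by -0.27 on the log2 scale and changed the share of called genes that were higher from 40.1% to 22.8%, and a median ratio of 1 moved the median by -0.14 and the share to 30.5%.

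**Figure D1:**
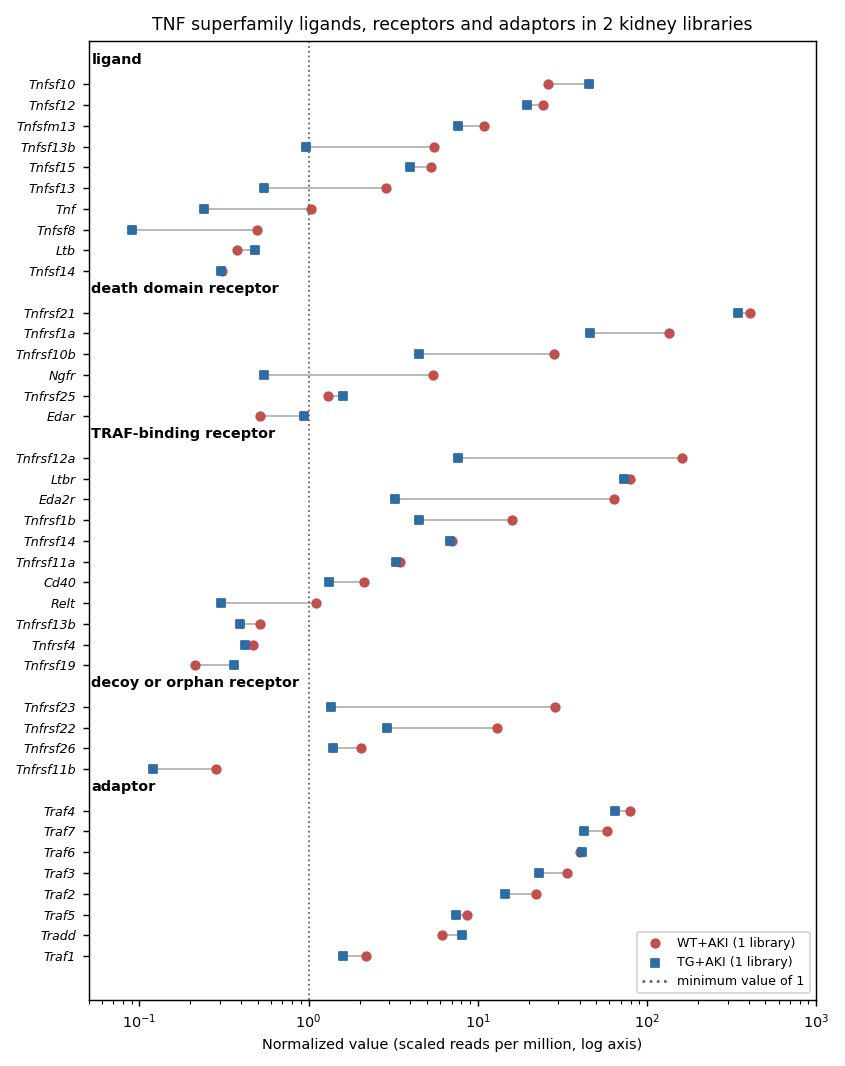
Normalized value (log axis) of each ligand, receptor and adaptor in WT+AKI (circles) and TG+AKI (squares), 1 library each, grouped by role and ordered by the WT+AKI value; the dotted line marks the minimum value of 1. Long bars to the left mark *Tnfrsf12a* (160.5 to 7.61), *Eda2r* (63.9 to 3.26) and *Tnfrsf23* (28.5 to 1.36), whereas the pairs of symbols of the adaptors lie close together.

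Among the ligands, 3 of 7 compared were called lower, beside 11.0% of all compared genes. All 3 reached the minimum value in WT+AKI alone, and none of the 4 ligands that reached it in both libraries was called. *Tnfsf13b* (gene ID 24099) encodes BAFF, a survival factor for B cells. Its value was 5.54 in WT+AKI, from 235 reads, and 0.966 in TG+AKI, from 32 reads, which is 5.74-fold lower [3.95 to 8.58]. *Tnfsf13* (gene ID 69583) encodes the related ligand APRIL, with a value of 2.88 from 122 reads in WT+AKI and 0.544 from 18 reads in TG+AKI, or 5.29-fold lower [3.21 to 9.23]. For *Tnf* (gene ID 21926), the founding cytokine of the family, 44 reads (a value of 1.04) in WT+AKI stood against 8 reads (0.242) in TG+AKI. *Tnf* was thus 4.30-fold lower, but with an interval of 2.0 to 10.6 and a WT+AKI value just above the minimum. *Tnf* was no longer called when 1 was added to both values or when the minimum was set on the mean of both libraries, and the same held for *Relt*.

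BAFF and APRIL are made largely by myeloid and stromal cells, and both were lower in the library in which the summed macrophage and fibroblast markers were also lower. Whether the cell markers and these ligands are linked was not tested. Within the macrophage list the markers did not move together. *Cd68* had values of 37.1 in WT+AKI against 1.39 in TG+AKI and *Itgam* 19.9 and 1.06, while *Csf1r* was listed at 37.5 and 43.0. The receptors for BAFF and APRIL on B cells gave few reads. *Tnfrsf13b* (TACI) had 22 reads in WT+AKI against 13 in TG+AKI, and none of the 6 B cell markers reached a value of 1 in either library.

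The promoters of *Tnfsf13b* and *Tnfsf13* are shown because, among the called members with a promoter sequence, they alone held the AP-1 motif TGANTCA in the window searched. The 30 bases around the motif come from RefSeq (GRCm38.p6) and read 5′ to 3′ on the strand of the gene, with the motif in capitals. Its first base lay 127 bases before the downstream start of *Tnfsf13b* (chr8:10006498-10006527, plus strand) and 133 bases before the start of *Tnfsf13* (chr11:69685666-69685695, minus strand). In GENCODE M21 both stretches also fall in the first exon of a longer transcript of the same gene.
Tnfsf13b: gtctggagTGAGTCAgtctgaaccccaagc
Tnfsf13: ttcatgccTGAGTCAgagtctaccacactc

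The other ligands were not called. *Tnfsf10* (TRAIL, a death-inducing ligand) had the highest ratio of all 31 compared members. Its value was 26.1 from 1107 reads in WT+AKI and 45.6 from 1510 reads in TG+AKI, a ratio of 1.75 [1.61 to 1.89], at percentile 89.6 of all compared genes. *Tnfsf12* (TWEAK) was at 24.3 and 19.6, a ratio of 0.807 [0.730 to 0.891]. *Tnfsf15* (TL1A) was at 5.26 and 3.96, with 0.752 [0.601 to 0.937]. Another 3 ligands stayed under the minimum, namely *Ltb* with 16 reads in each library, *Tnfsf14* (LIGHT) with 13 and 10, and *Tnfsf8* (CD30 ligand) with 21 and 3. The ratio of *Tnfsf8* was 0.183, with an interval of 0.0349 to 0.613.

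The genes for TWEAK and APRIL lie next to each other on chromosome 11, with *Tnfsf13* at chr11:69682846-69685784 and *Tnfsf12* at chr11:69686250-69695849 on the minus strand (GRCm38, GENCODE M21), 0.465 kb apart. *Tnfsfm13* is a readthrough transcript across both genes and had values of 10.9 and 7.64, a ratio of 0.701 [0.599 to 0.819]. Of the 100-base words in the longest transcript, 47.1% of those of *Tnfsf12* and 46.7% of those of *Tnfsf13* also occur in another gene, mainly *Tnfsfm13*, and 13.5% of the exon bases of *Tnfsf13* overlap the antisense gene *Tnfsf13os* (11 and 6 reads). It is not stated how such reads were assigned or whether the strand was used, so the values of these genes are uncertain.

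Death domain receptors divided into those with a much lower and those with a similar value in TG+AKI. Of 5 compared, 3 were called lower, beside 11.0% of all compared genes. *Tnfrsf1a* (gene ID 21937, chr6:125349362-125362484, plus strand), the main signaling receptor for TNF, had a value of 135.3 from 5737 reads in WT+AKI and 46.4 from 1536 reads in TG+AKI, and was 2.92-fold lower [2.76 to 3.09]. *Tnfrsf10b* (gene ID 21933), the mouse death receptor for TRAIL, was at 28.2 from 1197 reads and 4.47 from 148 reads, or 6.32-fold lower [5.32 to 7.55]. *Ngfr* (gene ID 18053), the low-affinity neurotrophin receptor, was at 5.45 from 231 reads and 0.544 from 18 reads, a ratio of 0.0998 [0.0581 to 0.161].

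By contrast, *Tnfrsf21* (death receptor 6), which had more reads than any other member, was at 406.7 from 17241 reads in WT+AKI and 346.8 from 11486 reads in TG+AKI. Its ratio was 0.853 [0.833 to 0.873], well within 2-fold. *Tnfrsf25* (death receptor 3, the TL1A receptor) had 55 reads and 53 reads, a ratio of 1.23 [0.830 to 1.83]. *Edar*, a receptor of skin appendage development, stayed under the minimum with 22 and 31 reads.

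The 3 largest differences among the members were in receptors without a death domain. *Tnfrsf12a* (gene ID 27279, chr17:23675445-23677468, minus strand) had a value of 160.5 from 6803 reads in WT+AKI and 7.61 from 252 reads in TG+AKI, and was 21.1-fold lower [18.6 to 24.0]. It held rank 59 from the lowest ratio among the 14997 compared genes. *Eda2r* (gene ID 245527, chrX:97333840-97377216, minus strand), a receptor for the A2 form of ectodysplasin that is known as a p53 target, was at 63.9 from 2711 reads and 3.26 from 108 reads, or 19.6-fold lower [16.2 to 24.0], at rank 64. *Tnfrsf23* (gene ID 79201), a decoy receptor for TRAIL, was at 28.5 from 1209 reads and 1.36 from 45 reads, or 21.0-fold lower [15.6 to 28.9], at rank 60. The intervals of these 3 receptors overlapped, so their order was not resolved at this depth. In TG+AKI, where these receptors were low, the 6 injured tubule markers were low as well.

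The promoter of *Tnfrsf12a* is shown as that of the member with the lowest ratio. The 231 bases before its first exon (chr17:23677469-23677699, minus strand) come from RefSeq (GRCm38.p6) and read 5′ to 3′ on the strand of the gene. They held neither the AP-1 motif nor the NF-κB consensus and are printed without capitals.
Tnfrsf12a: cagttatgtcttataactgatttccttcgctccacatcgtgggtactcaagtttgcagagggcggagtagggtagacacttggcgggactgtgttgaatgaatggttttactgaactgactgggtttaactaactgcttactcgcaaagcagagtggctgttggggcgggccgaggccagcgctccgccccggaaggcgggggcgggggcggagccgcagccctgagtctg

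Of the other TRAF-binding receptors, *Tnfrsf1b* (gene ID 21938), the second TNF receptor, which is prominent on leukocytes and endothelium, was at 16.0 from 677 reads and 4.47 from 148 reads. It was 3.57-fold lower [2.99 to 4.30], against 2.92-fold for *Tnfrsf1a*. *Relt* (gene ID 320100), a receptor without an established ligand, had 47 reads in WT+AKI against 10 in TG+AKI (values of 1.11 and 0.302), and was 3.67-fold lower with an interval of 1.83 to 8.15 that reached inside 2-fold. The remaining 4 compared receptors of this class had ratios between 0.626 and 0.972. *Ltbr* (lymphotoxin beta receptor) was at 79.8 and 73.0, with 0.915 [0.868 to 0.964]. *Tnfrsf14* (HVEM) was at 7.05 and 6.85 and *Tnfrsf11a* (RANK, the osteoclast differentiation receptor) at 3.47 and 3.29, both with intervals that held 1. *Cd40*, a costimulatory receptor of antigen-presenting cells, was at 2.12 and 1.33, with 0.626 [0.426 to 0.907]. *Tnfrsf13b*, *Tnfrsf19* and *Tnfrsf4* stayed under the minimum, with 9 to 22 reads.

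**Figure D2:**
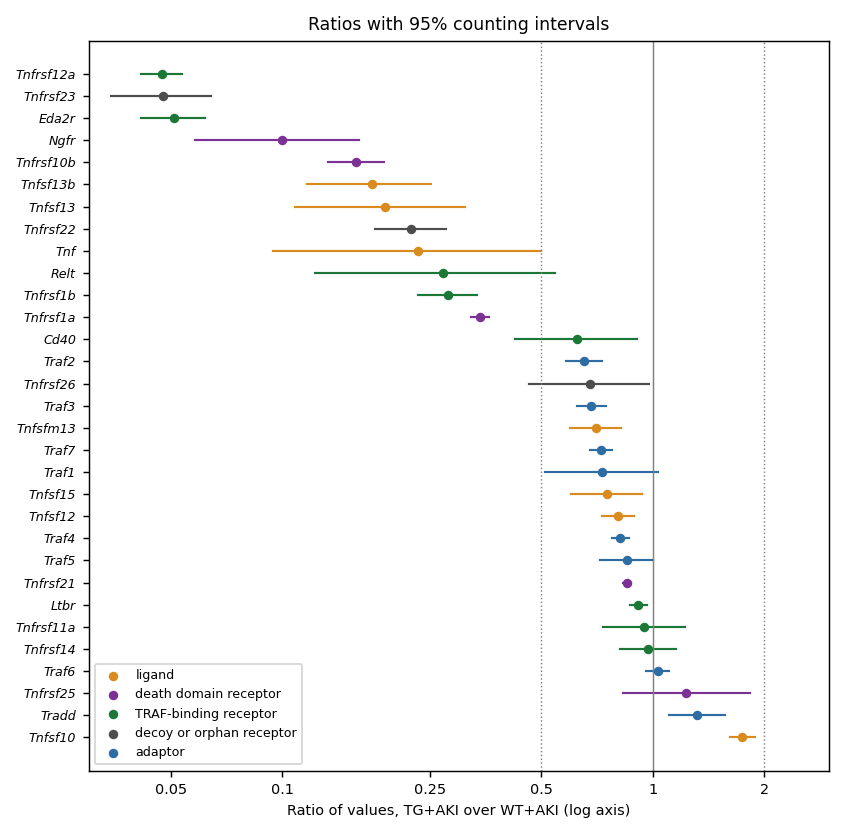
Ratio of the value in TG+AKI to that in WT+AKI (log axis) for the 31 members compared, ordered from the lowest, with 95% Clopper-Pearson intervals for counting error (1 library per group) and colors by role; the solid line marks a ratio of 1 and the dotted lines 0.5 and 2. A gap separates *Tnfrsf1a* at 0.343, the highest of the 12 called members, from *Cd40* at 0.626, and *Tnfsf10* lies farthest right at 1.75.

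Neighboring genes of the family did not move by the same amount. *Ltbr* lies 35.5 kb from *Tnfrsf1a* on chromosome 6 and had a ratio of 0.915 beside 0.343. On chromosome 7, *Tnfrsf26* (chr7:143607659-143628722), *Tnfrsf22* (chr7:143634806-143649661) and *Tnfrsf23* (chr7:143665809-143685872) follow each other on the minus strand with gaps of 6.08 kb and 16.1 kb. *Tnfrsf22* (gene ID 79202), like *Tnfrsf23* a decoy receptor for TRAIL, had a value of 13.0 from 551 reads in WT+AKI and 2.90 from 96 reads in TG+AKI and was 4.48-fold lower [3.60 to 5.63]. *Tnfrsf26*, the third gene of the cluster, had 87 and 46 reads, a ratio of 0.677 [0.463 to 0.979]. The intervals of these 3 neighbors did not overlap, with *Tnfrsf23* the lowest at a ratio of 0.048. *Tnfrsf22* shares 16.3% and *Tnfrsf23* 11.6% of its 100-base words with other genes, mainly with each other, so part of their reads could not be placed by sequence alone. *Tnfrsf11b* (osteoprotegerin), a soluble decoy receptor, had 12 and 4 reads and stayed under the minimum.

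None of the 8 adaptors was called, beside 11.0% of all compared genes called lower and 7.35% called higher. Their ratios ranged from 0.653 to 1.32. *Traf2*, which couples TNF receptors to the cellular inhibitors of apoptosis, was at 22.1 in WT+AKI against 14.4 in TG+AKI, a ratio of 0.653 [0.584 to 0.730]. *Traf3*, a negative regulator of the alternative NF-κB pathway, was at 33.9 and 23.1, with 0.683 [0.625 to 0.746]. *Traf7* (58.4 and 42.4, ratio 0.726) and *Traf4* (79.1 and 64.8, ratio 0.819) also had intervals below 1. *Traf1* (2.19 and 1.60) and *Traf5* (8.68 and 7.40) had ratios of 0.730 and 0.852 with intervals that held 1. *Traf6*, which also serves interleukin-1 and Toll-like receptors, was at 40.1 and 41.4, a ratio of 1.03 [0.961 to 1.11], and its log2 ratio of 0.05 turned to -0.23 with equal totals and -0.098 with a median ratio of 1. *Tradd*, the death domain adaptor of TNF receptor 1, was at 6.13 and 8.09, with 1.32 [1.11 to 1.57], and stayed above 1 under each scaling.

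By role, among members that reached the minimum in both libraries, 0 of 4 ligands, 7 of 14 receptors and 0 of 8 adaptors were called lower, beside 8.03% of all such genes. At that share few calls would fall among 4 ligands or 8 adaptors, so their counts of 0 lie near the background. The other 3 ligands and 2 receptors called lower passed the minimum in WT+AKI alone. Of the 9 lower receptors, 3 had a death domain, 4 bind TRAFs and 2 were decoy or orphan receptors. With a minimum value of 10 no ligand was called lower, because the 3 called ligands were all below it.

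**Figure D3:**
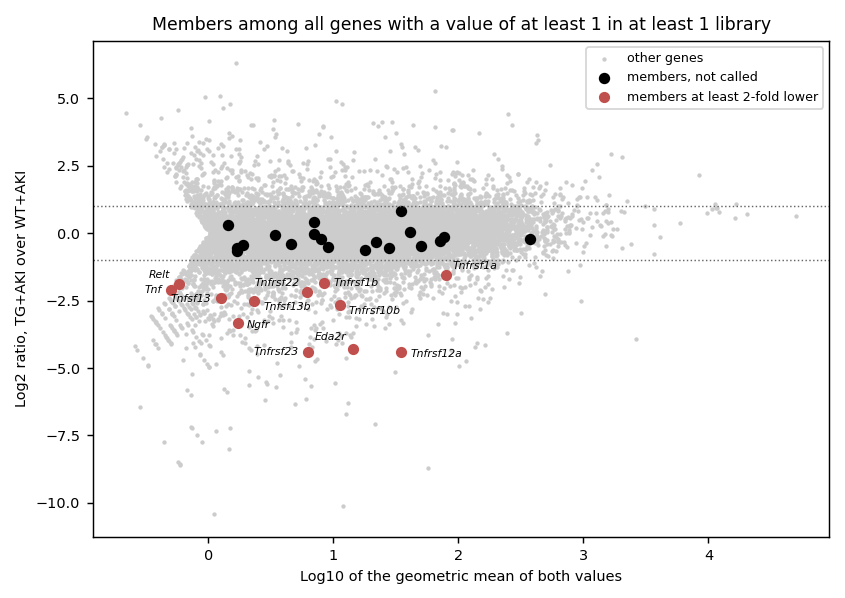
Log2 ratio of TG+AKI to WT+AKI against the log10 of the geometric mean of both values for the 14997 compared genes (gray), with members called lower (red) and not called (black); dotted lines mark 2-fold. *Tnfrsf12a*, *Eda2r* and *Tnfrsf23* sit between -4.40 and -4.29, and *Tnfrsf21*, the member farthest right, lies at -0.23.

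Dividing each value by the length of the longest annotated transcript allowed levels to be compared between genes. The summed level of the 21 receptors per kilobase was 425.7 in WT+AKI against 173.5 in TG+AKI. In WT+AKI, *Tnfrsf12a* had the highest level on this scale, with 163.1 per kilobase and 38.3% of the sum, followed by *Tnfrsf21* (26.3%), *Tnfrsf1a* (14.7%), *Ltbr* (8.90%) and *Eda2r* (3.16%). In TG+AKI, *Tnfrsf12a* stood at 7.73 per kilobase, the fourth place, with 4.46% of the sum. This first place in WT+AKI turned with the length used. Per kilobase of all annotated exons, an alternative added after seeing the data, *Tnfrsf12a* came second in WT+AKI with 83.1, below *Tnfrsf21* with 99.0, and stood in place 5 in TG+AKI with 3.94. Per kilobase of the longest transcript, *Tnfrsf21* led in TG+AKI with 55.1%, followed by *Ltbr* with 20.0% and *Tnfrsf1a* with 12.4%, while *Eda2r* was in place 10 with 0.396%. The shares of *Tnfrsf21* and *Ltbr* were higher in TG+AKI although their own levels per kilobase were not, with 112.1 and 95.6 for *Tnfrsf21* and 37.9 and 34.7 for *Ltbr*.

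Among the ligands, *Tnfsf12* led the 10 genes in both libraries, with 51.5% of their level per kilobase in WT+AKI against 47.7% in TG+AKI, and *Tnfsf10* was next with 15.9% and 31.9%. *Tnf* made up 1.93% and 0.515%. Among the adaptors, *Traf4* had 36.1% of the level per kilobase in both libraries and *Traf7* 26.9% and 23.8%.

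**Figure D4:**
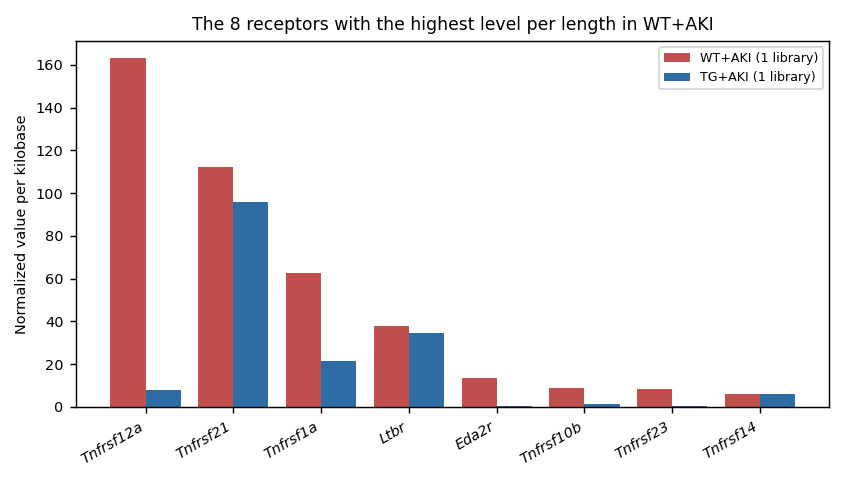
Normalized value per kilobase of the longest transcript for the 8 receptors with the highest level in WT+AKI, in WT+AKI (red) and TG+AKI (blue), 1 library each and without error bars. The bar of *Tnfrsf12a* is the tallest in WT+AKI at 163.1 and stands at 7.73 in TG+AKI (83.1 and 3.94 per kilobase of all exons, below *Tnfrsf21* in both), whereas *Tnfrsf21* and *Ltbr* have bars of similar height in both.

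Ligands and receptors were then set side by side. Of 25 listed ligand–receptor pairs, 14 had a row for both genes and 7 had both genes past the minimum. In 3 of these 7 both partners were called lower, among them *Tnf* with *Tnfrsf1a* and *Tnf* with *Tnfrsf1b*. In 3 further pairs the receptor was called lower and the ligand was not. For TWEAK and its receptor, the ratio was 0.807 for *Tnfsf12* and 0.047 for *Tnfrsf12a*. For TRAIL, it was 1.75 for *Tnfsf10*, 0.158 for the death receptor *Tnfrsf10b*, and 0.048 and 0.223 for the decoy receptors *Tnfrsf23* and *Tnfrsf22*. For ectodysplasin, *Eda* was at 1.49 and 0.876, a ratio of 0.589, beside 0.051 for *Eda2r*. The other ectodysplasin receptor, *Edar*, had a ratio of 1.80 but stayed under the minimum. In the remaining pair, *Tnfsf15* and *Tnfrsf25*, neither was called. None of the 7 pairs had a ligand called lower and a receptor that was not, but the called ligands *Tnfsf13* and *Tnfsf13b* had no compared receptor. Their receptor *Tnfrsf13b* stayed under the minimum, with a ratio of 0.756, and *Tnfrsf13c* and *Tnfrsf17* had no row. For these ligands the comparison could not be made.

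The other genes of the pathway were counted from lists of named genes, to be read against 11.0% of all compared genes called lower and 7.35% called higher. Of 5 compared superfamily genes and partners that carry other names, 4 were called lower and 0 higher. Among these were *Rell1* (39.7 and 11.8), *Edaradd* (5.02 and 1.63), the adaptor of the receptor encoded by *Edar*, and *Fas* (20.9 and 9.54), the death receptor for Fas ligand. The interval of *Fas*, 1.92- to 2.50-fold lower, reached inside 2-fold. Of 20 compared genes of the receptor complex and its ubiquitin enzymes, 2 were called lower and 0 higher, with a median log2 ratio of -0.15, so the share called lower was close to the 11.0% of all compared genes. The lower genes were *Birc3* (39.5 and 10.3), an inhibitor of apoptosis that is itself induced by NF-κB, and *Tifa* (12.0 and 4.92), a TRAF-interacting adaptor.

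In the list of IκB kinase (IKK) and NF-κB genes, 10 of 15 were called lower and 0 higher, with a median of -1.11. The largest differences were in *Relb* (17.7 and 2.99) and *Nfkb2* (68.8 and 14.0), the subunits of the alternative NF-κB pathway, and in *Tnfaip3* (32.8 and 6.67), which encodes the A20 ubiquitin editor that ends TNF signaling. *Bcl3* (12.2 and 2.54), *Nfkbie* (7.45 and 2.05) and *Map3k14* (19.5 and 7.10), the NF-κB-inducing kinase, were lower as well. In the death arm, 4 of 10 were called lower and 0 higher (median -0.46). Another 4 had ratios above 1, the highest being *Bid* (37.6 and 73.2) with 1.94 [1.82 to 2.07], just short of a call. *Ripk3* (3.49 and 0.453) and *Mlkl* (8.59 and 1.60), the kinase and the effector of necroptosis, had the largest differences. *Casp8* (47.8 and 23.0), the initiator caspase of death receptors, was lower as well, with an interval of 1.91- to 2.26-fold that reached inside 2-fold. *Ripk3* reached the minimum value in WT+AKI alone. In the stress kinase arm, 2 of 10 were called lower and 0 higher (median 0.01), namely *Jun* (88.8 and 25.8) and *Map2k3* (73.7 and 32.7).

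Of 16 compared genes on a list of TNF-induced genes, 12 were called lower and 1 higher (median -2.33). The list also held *Tnfaip8l1* and *Tnfaip8l2*, which are relatives of *Tnfaip8* and not established TNF-induced genes. *Tnfaip8l2* (1.23 and 0.574) was among the 12. The largest differences were in the chemokines *Cxcl1* (44.0 and 0.544), *Cxcl2* (6.16 and 0.211) and *Cxcl10* (25.0 and 2.05), and in *Lif* (47.3 and 0.936), *Ptgs2* (7.03 and 0.634) and *Csf1* (89.7 and 8.61), the growth factor of macrophages. The exception, named after its value was seen, was *Tnfaip8*, at 132.0 in WT+AKI against 421.9 in TG+AKI, a ratio of 3.20. Many of these genes respond to other inflammatory signals too. Of those named, *Cxcl1*, *Cxcl2*, *Lif* and *Ptgs2* reached the minimum value in WT+AKI alone and could only be compared because they were high there. The same held for *Ccl5*, *Ccl20* and *Tnfaip8l2*, so the count of 12 and the median rest largely on genes that passed only through WT+AKI.

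**Figure D5:**
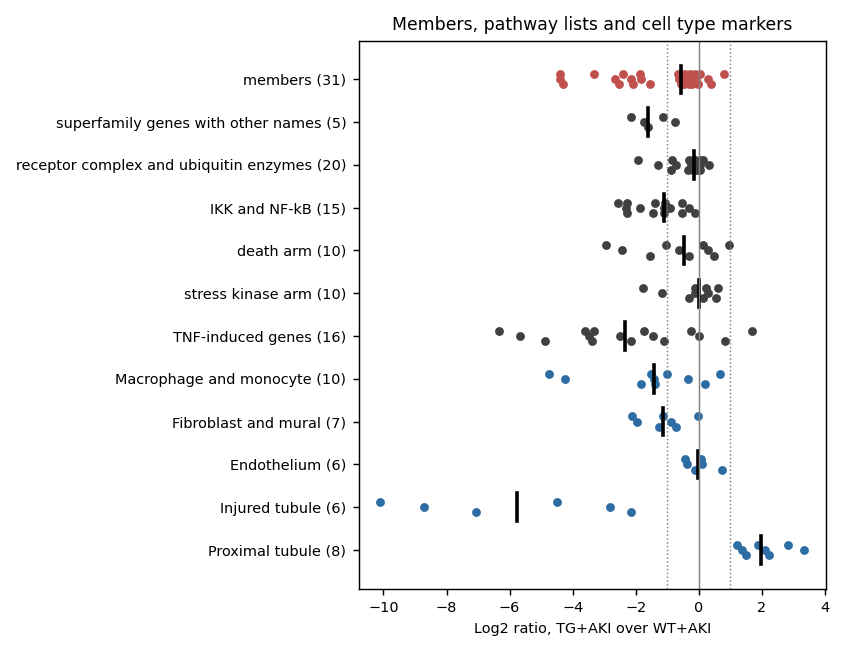
Log2 ratio of TG+AKI to WT+AKI for each compared gene (dots) of the members, 6 pathway lists and 5 cell type marker lists, with the number of genes in parentheses and the median as a vertical bar; dotted lines mark 2-fold. The medians run from -2.33 for TNF-induced genes to 0.01 for the stress kinase arm among the pathway lists, beside -5.78 for injured tubule and 1.98 for proximal tubule markers.

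Promoters were compared because 12 members were lower together. RefSeq promoter sequences of GRCm38.p6, from 250 bases before to 50 bases after the start of each gene, were found for 32 of the 40 members. The NF-κB consensus occurred on either strand in 2 of these 32 (6.25%), *Ltb* and *Traf3*, and in 6.14% of the 13412 genes of the table with a promoter. The AP-1 motif TGANTCA, which reads the same on both strands, occurred in 3 of the 32 (9.38%), *Tnfsf13*, *Tnfsf13b* and *Tnfsf14*, and in 6.9% of the 13412 genes. No promoter of a member held both motifs. Of the 3 ligands with an AP-1 motif, *Tnfsf13* and *Tnfsf13b*, whose sequences are given above, were called lower and *Tnfsf14* was under the minimum. A match describes the letters of this window and is not a measured binding site.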

How the data were processed

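For each gene and library the authors deposited 1 normalized signal value, which derives from a count of reads per gene. Per the labels and methods, STAR 2.7.3a, HTSeq, DESeq2 and edgeR were among the tools and mm10 was the build; the libraries were stranded, and whether counting used the strand is not given in the sources used here. All deposited signal values (100%, tolerance 0.001) were whole multiples of 1 read, so reads were recovered. Per the file's values, the scaling equaled edgeR 4.0.16 TMM factors of 1.10 (WT+AKI) and 0.909 (TG+AKI), so values are reads per 1000000 of a TMM-scaled library. Total reads were 38542764 and 36427421.

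Ratios, counts and exact 95% intervals were computed with Python 3.11.15 and scipy 1.17.1 and tested on simulated data. No test of the genotype was possible with 1 library per group. All members may be named; of the pathway lists, at most the 6 called genes with the largest absolute log2 ratio were named, besides *Eda* as a listed ligand and *Tnfaip8*, named after its value was seen. Some genes that this rule selects are not reported here. Lengths, coordinates and shared 100-base words came from GENCODE M21 (GRCm38). The members and lists were chosen with earlier results of these data known. Alternatives covered scaling, an added constant, the minimum value and the call rule; a minimum on the mean of both libraries, leaving out members that share over 10% of their 100-base words, and the length of all annotated exons were added after seeing the data.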

Additional observations from a re-analysis of the deposited data

How the results depend on the processing

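No paired analysis was possible because each group held 1 library, and for the same reason no replicate could be left out. The count of 12 lower members was the same with equal total reads, DESeq2 size factors, a median ratio of 1 and an added constant of 0.1. It was 10 with an added constant of 1, 11 when the whole interval had to pass 2-fold, 10 with the minimum on the mean of both libraries and 9 without members that share over 10% of their 100-base words with another gene. Without a minimum, 14 members were lower, as were 2489 genes of the table, with 1821 higher. With a minimum of 10, 7 members and 0 ligands were lower, as were 2 genes of the death arm, 7 TNF-induced genes and 790 genes of the table, with 629 higher; fewer genes were compared. With equal total reads, 715 genes of the table were higher and 4 genes of the receptor complex list lower. An exact binomial test on the reads at an adjusted p threshold of 0.05, which compares the 2 libraries and not the genotypes and sets no limit on the fold, called 23 members lower and 2 higher (*Tnfsf10* and *Tradd*), with 6 ligands, 4 adaptors, 12 genes of the receptor complex list and 5 of the stress kinase arm lower, and 5697 genes lower and 5350 higher over the table. With the length of all annotated exons, the share of the receptor level per kilobase was 26.9% in WT+AKI and 2.65% in TG+AKI for *Tnfrsf12a*, and 32.1% and 56.7% for *Tnfrsf21*. No called member changed direction under any alternative. *Traf6*, which was not called, changed sign with equal totals and with a median ratio of 1. Depth limits the members under the minimum, which had 3 to 31 reads, and *Tnf* and *Relt*, with 8 and 10 reads in TG+AKI.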
